A study of Mus musculus with 10 samples.

Results

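Matricellular proteins are secreted into the extracellular matrix, where they modulate how cells adhere, migrate and respond to growth factors, rather than bearing load as collagens do. They are bound at the cell surface by integrins, CD36, CD44 and CD47, and their expression is known to be high where tissue is formed or repaired, including regenerating muscle. The 9 genes described here, *Mgp*, *Spp1*, *Sparc*, *Sparcl1*, *Thbs1*, *Thbs2*, *Thbs3*, *Tnc* and *Postn*, were taken by symbol from the 55359 genes of the deposited table. They were chosen by their measured values in the contrast described here, because *Mgp* and *Spp1* were higher after *Fndc1* knockdown while structural matrix genes were lower. Fold changes of the 9 genes are therefore given as a description, without p-values.

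C2C12 is an immortalized mouse myoblast line that fuses into myotubes when serum is lowered. Cells received 100 nM of an siRNA against *Fndc1* (si-*Fndc1*, 5 libraries) or of a scrambled siRNA (si-Control, 5 libraries), and RNA was taken at day 4 of differentiation according to the sample labels, whereas the description of the series places harvest earlier. *Fndc1* encodes a secreted protein with fibronectin type III domains, and the study asked which receptor and pathway it acts through. All libraries come from this line, with 1 siRNA against *Fndc1* listed in the methods, and the labels and the methods name different transfection reagents. The labels do not say whether the libraries came from separate cultures, so p-values measure the spread between these libraries, which may be technical. The methods speak of 4 RNA-seq libraries without saying which, whereas 10 are labelled and all 10 were used, so what the 5 libraries per group replicate is uncertain. In bulk RNA, fewer cells of a kind and less RNA per cell cannot be told apart.

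The libraries held 56332844 to 75995168 counts each. *Fndc1* itself was 27.8 ± 2.04 FPKM (fragments per kilobase of transcript, scaled to sequencing depth; mean ± SD, n = 5) in si-Control. In si-*Fndc1* it was 20.9 ± 1.70 FPKM (mean ± SD, n = 5), a log2 difference of -0.40 (adjusted p = 0.000934 by edgeR), and no library overlapped between the groups. Corrected for GC content and transcript length, the *Fndc1* difference was -0.22 (adjusted p = 0.0104 by edgeR). The cells expressed 8 of 8 myogenic and myotube genes on a marker list, whose summed level was 4045 to 4521 FPKM in si-Control, against 3800 to 4547 FPKM in si-*Fndc1*. Of these, *Myod1* (log2 difference 0.16), *Ckm* (0.39) and *Mymk* (0.26) were called higher and 0 lower, where 17.3% and 17.2% of all tested genes were. *Mymk* overlapped between the groups, and these differences are given without the correction for GC content and length. Hepatocyte transcripts, which these cells should lack, summed to 0.0443 to 6.73 FPKM over 16 genes in si-Control and to 53.6 to 188.1 FPKM in si-*Fndc1*. Of these 16 genes, 14 were tested and all 14 were called higher, where 17.3% of all tested genes were. Testing required a mean of at least 0.5 FPKM over the 10 libraries. Of the 14, all but *Alb* reached it only through si-*Fndc1*, so nothing is read from that count.

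Expression of the group spanned several orders of magnitude. In si-Control the order of the mean levels per length was *Sparc*, *Thbs1*, *Mgp*, *Spp1*, *Postn*, *Tnc*, *Thbs2*, *Thbs3* and *Sparcl1*, and it was the same in si-*Fndc1*. *Sparc* ranked at place 27 and *Thbs1* at place 28 of 13548 tested genes in si-Control, *Mgp* at place 110 and *Spp1* at place 123. *Thbs3* ranked at place 10574. Neighbours in the order did not overlap between libraries in si-Control except *Mgp* and *Spp1*, which ran from 254.8 to 298.3 and from 233.2 to 285.9 FPKM. Tested genes are those with a mean of at least 0.5 FPKM over the 10 libraries, and 8 of the 9 passed, the exception being *Sparcl1*.

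**Figure D1:**
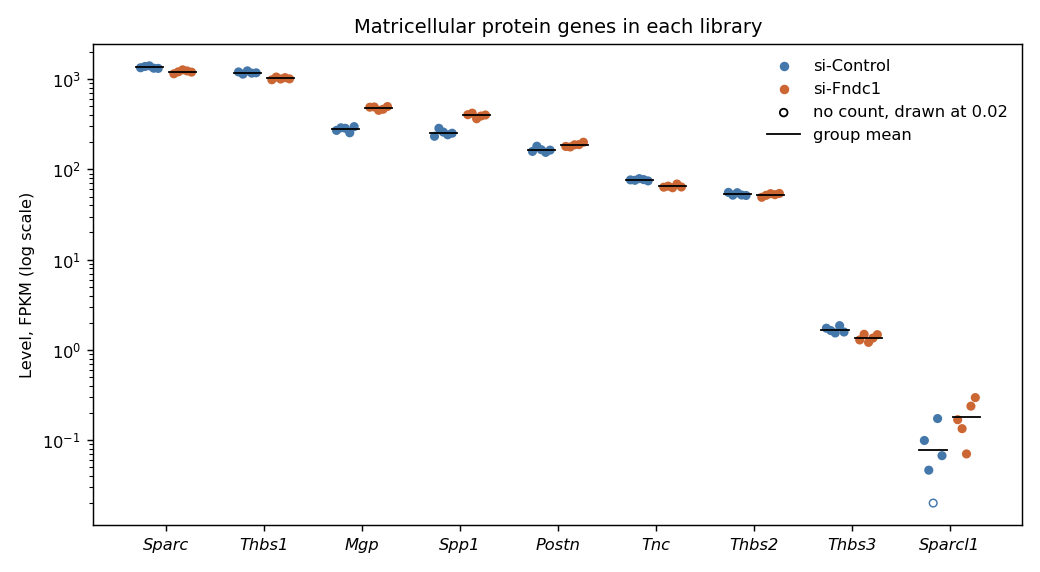
Level of each matricellular gene in FPKM (vertical axis, log scale) in the 5 si-Control and 5 si-Fndc1 libraries (points), with group means as lines and genes ordered by their control mean. Mgp and Spp1 separate upwards in si-Fndc1, Sparc, Thbs1, Tnc and Thbs3 separate downwards, and Sparcl1 stays below 0.3 FPKM with no count in si-Control replicate 3 (open point at the bottom).

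By edgeR's quasi-likelihood test across all tested genes, 3 of the 8 tested genes were called higher in si-*Fndc1* (*Mgp*, *Spp1* and *Postn*) and 4 were called lower (*Sparc*, *Thbs1*, *Thbs3* and *Tnc*) at an adjusted p-value under 0.05. Over all 13548 genes 34.4% were called, 17.3% higher and 17.2% lower. By normalised counts, every si-*Fndc1* library lay beyond the si-Control range for 2 of the 8 genes upwards and 4 downwards, as it did for 12.8% and 12.3% of all genes (25.1% in either direction). Nothing is read from these counts, since the contrast chose the genes. The median log2 fold change was -0.09 over the 8 genes and 0.00 over all tested genes.

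Gene coordinates are those of the deposited table, which names no build. They are not on GRCm38.p6, the build of the promoter windows given below. *Spp1* starts at 104582984 in the deposited table, whereas its last GRCm38.p6 window ends at 104436241. *Mgp* (ENSMUSG00000030218, chromosome 6 from 136849433 to 136852821, minus strand) encodes matrix Gla protein, a small vitamin K-dependent inhibitor of calcification that also binds bone morphogenetic proteins. Its level in si-Control libraries 1 to 5 was 271.0, 289.7, 285.9, 254.8 and 298.3 FPKM. In si-*Fndc1* libraries 1 to 5 it was 489.8, 493.1, 452.1, 464.9 and 498.2 FPKM. All 5 si-*Fndc1* values exceeded the highest si-Control value. The means were 279.9 ± 17.2 and 479.6 ± 20.0 FPKM (SD, n = 5 each), a ratio of 1.71, and the log2 fold change was 0.78 (standard error 0.05).

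*Spp1* (ENSMUSG00000029304, chromosome 5 from 104582984 to 104588916, plus strand) encodes osteopontin, a phosphorylated glycoprotein whose RGD motif is bound by αv integrins and which CD44 also binds. Across si-Control libraries 1 to 5, *Spp1* stood at 233.2, 285.9, 259.6, 242.2 and 252.1 FPKM. Across si-*Fndc1* libraries 1 to 5, it stood at 404.5, 421.1, 364.9, 391.2 and 401.5 FPKM. The groups did not overlap, and the lowest si-*Fndc1* library, replicate 3, was also the lowest for *Mgp*. The log2 fold change was 0.65 (standard error 0.06) and the ratio of the mean levels was 1.56. Within each library *Mgp* exceeded *Spp1*, by 1.01 to 1.18 times in si-Control and by 1.17 to 1.24 times in si-*Fndc1*.

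Among the 123 tested genes with a si-Control level at or above that of *Spp1*, *Mgp* had the 8th largest log2 fold change and *Spp1* the 13th. Of these 123 abundant genes 58 were called higher and 27 lower, whereas 17.3% and 17.2% of all tested genes were. The ranks are a description, since the contrast chose both genes. Over all tested genes, 2.41% had a larger log2 fold change than *Mgp* and 3.76% a larger one than *Spp1*. The order relative to *Col1a1*, the structural matrix gene with the largest fall, turned over within the libraries. The ratio of *Mgp* to *Col1a1*, which encodes the α1 chain of type I collagen, was 0.665 to 0.832 in si-Control, against 1.99 to 2.47 in si-*Fndc1*, in units of FPKM. The ratio of *Spp1* to *Col1a1* was 0.621 to 0.795 in si-Control, against 1.61 to 1.99 in si-*Fndc1*. Both ratios use values that chose the genes and are not corrected for GC content and length. No other collagen was compared in this way.

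*Postn* (ENSMUSG00000027750, chromosome 3 from 54268530 to 54298458, plus strand) encodes periostin, a fasciclin-domain protein that binds integrins and collagen. It had 158.5, 181.0, 165.6, 154.5 and 163.7 FPKM in si-Control libraries 1 to 5. In si-*Fndc1* libraries 1 to 5 it had 179.9, 177.5, 187.7, 188.4 and 200.4 FPKM. The groups overlapped through si-Control replicate 2, and 3 of the 5 si-*Fndc1* libraries exceeded the si-Control range. The log2 fold change was 0.19 (standard error 0.05).

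*Sparc* (ENSMUSG00000018593, chromosome 11 from 55285326 to 55314009, minus strand) encodes a calcium- and collagen-binding glycoprotein and was the most abundant of the genes. Levels in si-Control libraries 1 to 5 were 1341, 1385, 1408, 1326 and 1319 FPKM. Levels in si-*Fndc1* libraries 1 to 5 were 1149, 1209, 1272, 1237 and 1200.0 FPKM. All 5 si-*Fndc1* values were under the lowest si-Control value, and the log2 fold change was -0.15 (standard error 0.04). The same si-*Fndc1* library, replicate 3, that was lowest for *Mgp* and *Spp1* was the highest of its group for *Sparc*.

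Its relative *Sparcl1* (ENSMUSG00000029309, chromosome 5 from 104226977 to 104261599, minus strand), which encodes hevin, was close to absent. The counts were 25, 11, 0, 41 and 15 in si-Control libraries 1 to 5 and 39, 32, 17, 56 and 55 in si-*Fndc1* libraries 1 to 5. The ranges overlapped, and with no filter on low values *Sparcl1* was not called. A count of 0 allows up to 3 counts, by counting error only. *Sparcl1* and *Spp1* bound a stretch of chromosome 5 that also holds the bone and tooth matrix genes *Dspp*, *Dmp1*, *Ibsp* and *Mepe*. *Dspp*, *Ibsp* and *Mepe* had no count in any library, and *Dmp1* had 15 to 63, so that *Spp1*, with 30852 to 56404 counts, was the only one of the 6 genes above 100 counts in any library.

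Thrombospondins are multimeric glycoproteins, of which thrombospondin 1 and 2 form trimers and thrombospondin 3 forms pentamers. Thrombospondin 1 is bound by CD36 and CD47 and can activate latent TGF-β. *Thbs1* (ENSMUSG00000040152, chromosome 2 from 117942357 to 117957614, plus strand) had 1206, 1139, 1239, 1168 and 1179 FPKM in si-Control libraries 1 to 5. In si-*Fndc1* libraries 1 to 5 it had 987, 1058, 1006, 1042 and 1009.9 FPKM. The groups did not overlap, and the log2 fold change was -0.21 (standard error 0.03).

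*Thbs2* (ENSMUSG00000023885, chromosome 17 from 14885762 to 14914497, minus strand) was at 51.5 to 55.7 FPKM in si-Control, against 49.1 to 54.2 FPKM in si-*Fndc1*. The ranges overlapped nearly whole, and the log2 fold change was -0.02 (standard error 0.04). The ratio of *Thbs1* to *Thbs2* within a library, in FPKM, was 21.6 to 22.9 in si-Control, against 18.6 to 20.5 in si-*Fndc1*, so it was lower in every si-*Fndc1* library.

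*Thbs3* (ENSMUSG00000028047, chromosome 3 from 89122487 to 89134144, plus strand) had 1.74, 1.64, 1.54, 1.85 and 1.58 FPKM in si-Control libraries 1 to 5. It had 1.29, 1.49, 1.21, 1.35 and 1.47 FPKM in si-*Fndc1* libraries 1 to 5, all below the si-Control range, from 445 to 586 counts against 567 to 726. The log2 fold change was -0.28 (standard error 0.08), the least precise of the 8. *Thbs3* overlaps *Mtx1* on the opposite strand, which had a mean of 2319 counts in si-Control against 645 for *Thbs3*, and whether counting used the strand is not stated, so the *Thbs3* values are uncertain.

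*Tnc* (ENSMUSG00000028364, chromosome 4 from 63878022 to 63965252, minus strand) encodes tenascin-C, a hexameric protein of developing and injured tissue. It had 76.6, 75.8, 79.1, 77.1 and 74.6 FPKM in si-Control libraries 1 to 5. It had 63.6, 65.3, 62.7, 69.0 and 63.9 FPKM in si-*Fndc1* libraries 1 to 5. The groups did not overlap, and the log2 fold change was -0.23 (standard error 0.03). *Postn* and *Tnc* therefore went apart, with a ratio of *Postn* to *Tnc* in FPKM of 2.00 to 2.39 in si-Control, against 2.72 to 3.14 in si-*Fndc1*. The ratio is not corrected for GC content and length. With that correction *Postn* was 0.12 and not called, and *Tnc* was -0.11.

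The summed level of the 9 genes was 3373 ± 82.5 FPKM in si-Control and 3416 ± 57.9 FPKM in si-*Fndc1* (mean ± SD, n = 5 per group), and the ranges of 3277 to 3494 and 3325 to 3477 FPKM overlapped. The composition of that sum differed, in values that chose the genes and that are not corrected for GC content and length. *Mgp* and *Spp1* together took 15.1% to 16.9% of it in si-Control, against 24.0% to 26.9% in si-*Fndc1*. *Sparc* and *Thbs1* together took 74.0% to 76.2% in si-Control, against 64.3% to 67.0% in si-*Fndc1*. The FPKM values of all genes summed to 300979 to 320728 in si-Control, against 325534 to 347901 in si-*Fndc1*.

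**Figure D2:**
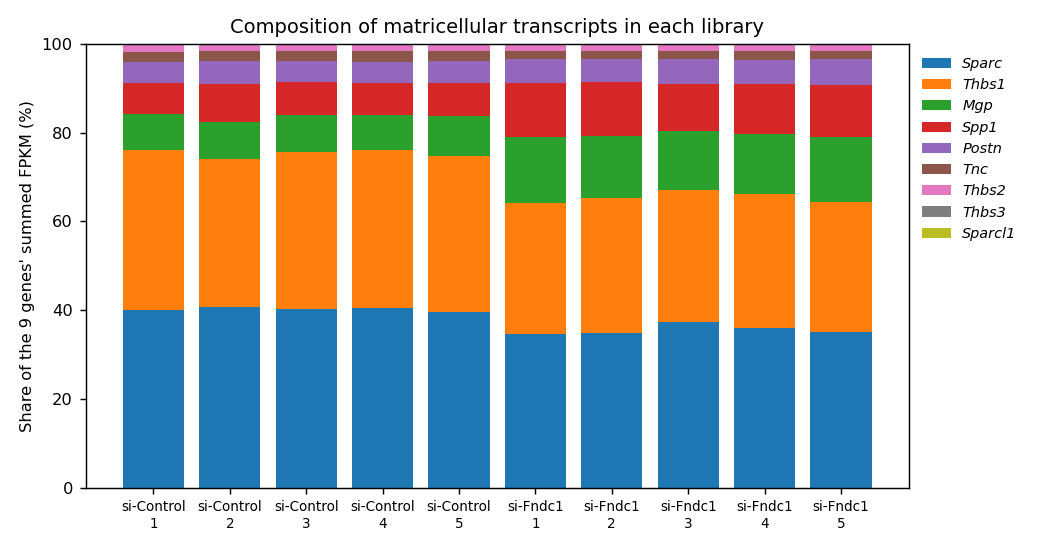
Share of each gene in the summed FPKM of the 9 matricellular genes (vertical axis, percent), one stacked bar per library. The joint share of Mgp and Spp1 is 15.1% to 16.9% in the si-Control bars and 24.0% to 26.9% in the si-Fndc1 bars. The shares are a description, since the contrast chose the genes.

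Between libraries of one group the 8 tested genes varied little, with coefficients of variation of 2.16% to 7.92% in si-Control, against 2.82% to 8.75% in si-*Fndc1*. In si-Control, replicate 2 was the highest library for *Spp1* and for *Postn* and the lowest for *Thbs1*. The genes whose normalised profiles over the 10 libraries were closest to that of *Mgp*, by the root mean square difference of centred log2 CPM (counts scaled to library size), were *mt-Co3* (0.060), *Rpl27a* (0.086) and the gene model *Gm7665* (0.092), and *Spp1* came at place 4 (0.093). Those closest to *Spp1* were *Gm11868* (0.046), *Rps24* (0.075) and *Atp5l* (0.076). *Mt-Co3* is a mitochondrially encoded subunit of cytochrome c oxidase, *Rpl27a* and *Rps24* encode ribosomal proteins, and *Atp5l* a subunit of ATP synthase. Ribosomal protein genes have near-identical copies in the genome, so their counts are uncertain.

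The genes differ in length and base composition, and correcting for both moved their fold changes. *Mgp* and *Spp1* were the shortest of the 8, with transcript lengths of 1320 and 1832 bases implied by the authors' count and FPKM, where 4.59% and 9.49% of tested genes were shorter. *Spp1* and *Postn* had the lowest GC contents of 43.3% and 44.1%, and *Thbs3* the highest at 55.96%. After removal of the trend with GC content and length in each library, the log2 fold change of *Mgp* was 0.60 (standard error 0.05) and that of *Spp1* 0.32 (standard error 0.06), and both kept their calls. Of the genes with profiles closest to *Mgp*, *mt-Co3* went from 0.78 to 0.28, *Gm7665* from 0.80 to 0.41 and *Rpl27a* from 0.77 to 0.66. Of those closest to *Spp1*, *Rps24* went from 0.67 to 0.59 and *Atp5l* from 0.65 to 0.66, and *Gm11868* had no GC content and was not in that fit. *Sparc* at -0.11, *Thbs1* at -0.18 and *Tnc* at -0.11 also kept theirs. *Postn* at 0.12 and *Thbs3* at -0.13 did not, which left 2 genes called higher and 3 lower. Over all 11185 genes in the corrected fit 22.7% were called, 11.3% higher and 11.4% lower. Whether the GC trend is technical was not tested.

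**Figure D3:**
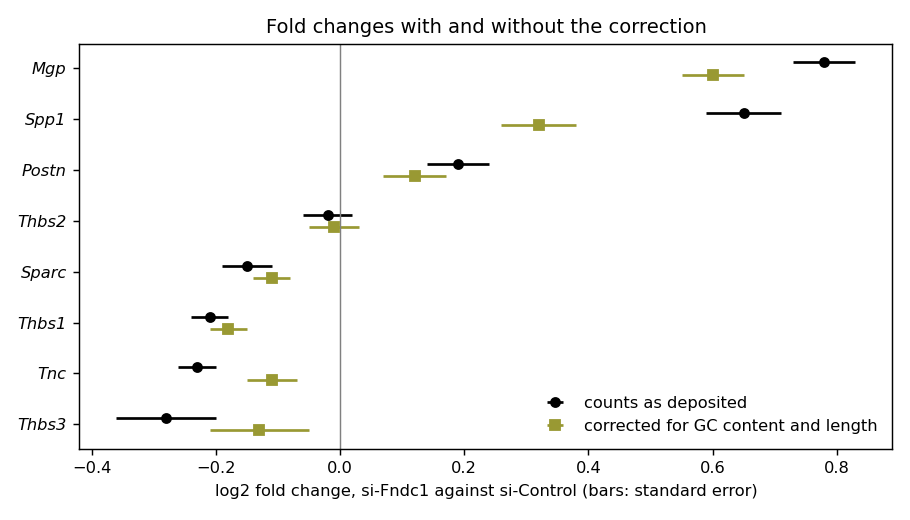
Log2 fold change of si-Fndc1 against si-Control (horizontal axis) for the 8 tested genes, from the deposited counts (circles) and with GC content and length corrected for (squares), with standard errors as bars. All 8 values lie nearer to 0 after the correction, and Spp1 moves from 0.65 to 0.32.

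Liver transcripts moved with the groups, and both *Mgp* and *Spp1* are also expressed outside muscle. Within si-*Fndc1* the library with the lowest hepatocyte sum, replicate 5 at 53.6 FPKM, had the highest *Mgp* level, 498.2 FPKM, and a *Spp1* level of 401.5 FPKM. The library with the highest hepatocyte sum, replicate 2 at 188.1 FPKM, had 493.1 FPKM of *Mgp* and 421.1 FPKM of *Spp1*. Without replicate 5 or any other library, the log2 fold change stayed between 0.75 and 0.81 for *Mgp* and between 0.62 and 0.69 for *Spp1*. Leaving out a library cannot separate the hepatocyte signal from the siRNA, since every si-*Fndc1* sum (53.6 FPKM or more) exceeded every si-Control sum (6.73 FPKM or less). Within si-Control the 3 libraries with sums of 1.96 to 6.73 FPKM had more *Mgp* (285.9 to 298.3 FPKM) and *Spp1* (252.1 to 285.9 FPKM) than the other 2, at 254.8 and 271.0 FPKM of *Mgp* and 233.2 and 242.2 FPKM of *Spp1*. The part of the source of these transcripts in the levels of *Mgp* and *Spp1* was not tested, and in this design it cannot be told apart from that of the siRNA.

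Of the marker lists for other cells in which *Mgp* or *Spp1* is abundant, none had a summed level that separated the groups. Genes counted in every library made up most of the osteoblast, macrophage and cholangiocyte sums. Among them were *Runx2* (si-Control mean 5.77 FPKM), *Sox9* (7.41), *Bglap2* (4.04), *Cd14* (3.87) and *Krt19* (4.03). A trace of another cell type could therefore be missed in these sums, and its part was not tested. The 12 osteoblast and chondrocyte genes summed to 17.04 to 18.7 FPKM in si-Control, against 15.4 to 17.9 FPKM in si-*Fndc1*, of 3 tested 1 was called lower (*Runx2*), and *Ibsp*, *Alpl* and *Acan* had no count. The 10 macrophage genes summed to 4.42 to 5.17 and 3.87 to 5.09 FPKM, with *Ptprc* and *Adgre1* at no count and 0 of 2 tested genes called. Of its untested genes, *Lyz2* (19 counts), *C1qa* (8) and *C1qb* (15) were counted in si-*Fndc1* replicate 4 only, and *Itgam*, with 8 to 38 counts per library, exceeded the si-Control range by FPKM in 4 of the 5 si-*Fndc1* libraries. The 6 endothelial genes summed to 0.111 to 0.161 and 0.134 to 0.298 FPKM, with *Cdh5* at no count. The 5 cholangiocyte genes summed to 10.6 to 12.2 and 9.58 to 11.6 FPKM, with *Epcam* at no count. The 5 smooth muscle and pericyte genes summed to 1007 to 1061 and 1037 to 1077 FPKM, nearly all of it *Acta2*, which differentiating myoblasts express too, and of 3 tested 1 was called higher and 1 lower.

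**Figure D4:**
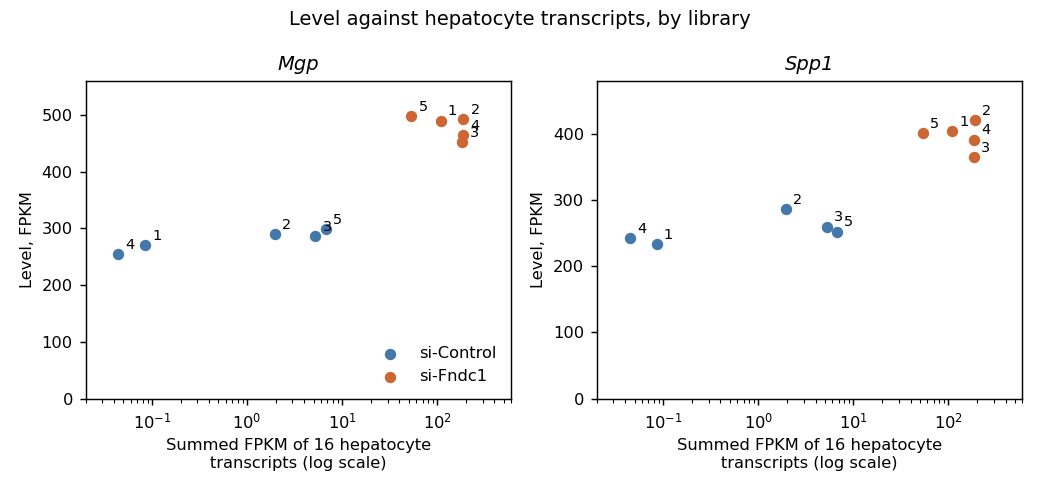
Level of Mgp (left) and Spp1 (right) in FPKM against the summed FPKM of 16 hepatocyte transcripts (horizontal axis, log scale), one numbered point per library. The groups are apart on both axes, and within si-Fndc1 the library with the lowest hepatocyte sum (replicate 5, 53.6 FPKM) has the highest Mgp level.

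Around the start sites, RefSeq promoter windows of the mouse build GRCm38.p6 (250 bases before to 50 after a start) were found for 6 of the 9 genes, 9 windows in all since some genes have several starts, and not for *Mgp*, *Sparcl1* and *Thbs1*. They were searched on both strands for TATAAA (the letters of a TATA box, which lies close before a start), TGTGGT (bound by RUNX factors), TGANTCA (AP-1) and CANNTG (the E-box bound by myogenic factors). TATAAA was in 5 of the 9 windows, from 4 genes, and in 13.6% of all 32851 windows. TGTGGT was in 2 of the 9 and in 16.8% of all, CANNTG in 7 of the 9 and in 72.3% of all, and TGANTCA in 0 of the 9 and in 7.81% of all. The 2 *Tnc* windows overlap and share 1 TATAAA match. The stretches below are shown because *Spp1* and *Postn* were called higher (*Postn* only before the GC and length correction) and *Tnc* lower. Each match is in capitals (ACCACA is TGTGGT on the opposite strand). The other TGTGGT match, 35 bases after a start of *Sparc*, which was called lower, is not shown. A TATAAA match of *Spp1*, 211 bases before a start, is not shown either. The *Spp1* match shown began 128 bases before a start and the *Postn* match 26 bases before. The *Tnc* match began 126 bases before one of its starts and 205 before the other. Of the matches shown, only that of *Postn* lay close before a start.
*Spp1*, chr5:104434972-104435001, plus strand: ttttttttttaACCACAaaaccagaggagg
*Postn*, chr3:54361070-54361099, plus strand: gcccagagctaTATAAActcagctctccag
*Tnc*, chr4:64047123-64047152, minus strand: tttttcttcacTATAAAttgtatgcaaatg

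The other genes that act with these proteins were described by lists written with earlier results of these data known. Of 22 further matricellular genes (CCN proteins, SMOC and SPOCK proteins, other tenascins and thrombospondins, *Fstl1*, *Tgfbi* and the relatives of *Spp1* on chromosome 5), 8 were tested, 1 rose and 1 fell, against 17.3% and 17.2% of all genes. *Smoc2*, a SPARC-related calcium-binding protein, rose from 5.01 ± 0.522 to 6.02 ± 0.526 FPKM (mean ± SD of 5 libraries), a log2 difference of 0.27 with adjusted p = 0.0208 by edgeR. Without si-Control replicate 5 the adjusted p was 0.0517 in the same edgeR test. *Spock2*, a proteoglycan with a SPARC-like domain, fell from 11.4 ± 0.485 to 9.52 ± 0.421 FPKM (mean ± SD of 5 libraries), a log2 difference of -0.25 with adjusted p = 0.000982 by edgeR, and after the GC and length correction it was -0.09 (adjusted p = 0.138 by edgeR).

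Of 16 receptor genes 13 were tested, 3 rose and 5 fell (23.1% and 38.5%, against 17.3% and 17.2% of all tested genes), with a median log2 fold change of -0.08. *Cd36*, which encodes a thrombospondin and fatty acid receptor, rose from 7.40 ± 0.172 to 10.2 ± 0.538 FPKM (mean ± SD of 5 libraries), a log2 difference of 0.46 with adjusted p = 4.96e-05 by edgeR. *Lrp1*, an endocytic receptor that clears thrombospondins, fell from 164.7 ± 7.39 to 116.0 ± 7.35 FPKM (mean ± SD of 5 libraries), a log2 difference of -0.50 with adjusted p = 4.36e-05 by edgeR. After the GC and length correction 1 receptor gene was called higher and 4 lower, against 11.3% and 11.4% of all genes in that fit. *Cd36* was then 0.19 and *Lrp1* -0.11, both still called. *Itgb1*, the integrin β1 subunit, had a log2 difference of 0.21 (adjusted p = 0.0139 by edgeR) that was 0.07 after the correction (adjusted p = 0.421 by edgeR). *Itgav*, the αv subunit of osteopontin receptors, fell by 0.74 on the log2 scale (adjusted p = 0.0241 by edgeR). Its si-Control replicates 3 and 4 had 13.6 and 14.5 FPKM and the others 6.75 to 7.20 FPKM, against 5.52 to 6.62 FPKM in si-*Fndc1*. The *Itgav* call was lost with si-Control replicate 3 or 4 or si-*Fndc1* replicate 3, 4 or 5 left out (adjusted p from 0.0512 to 0.0585, edgeR). A block for replicate numbers also ended the call (-0.65, adjusted p = 0.0655 by edgeR), as did block and correction together (-0.70, adjusted p = 0.0653 by edgeR).

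Of 18 genes of the vitamin K cycle and of mineralization 13 were tested, 0 were called higher and 2 lower (0% and 15.4%, against 17.3% and 17.2% of all tested genes). With the filter of 0.5 FPKM and no correction for GC content and length, none was called higher by edgeR, by DESeq2 or by limma. In that edgeR test 1 had an unadjusted p-value under 0.05 with a rise. *Ggcx*, the γ-carboxylase that modifies matrix Gla protein, fell from 11.4 ± 0.384 to 8.80 ± 0.299 FPKM (mean ± SD of 5 libraries). Its log2 difference was -0.36 (adjusted p = 0.000133 by edgeR) and -0.37 after the correction. *Fam20c*, the kinase that phosphorylates osteopontin, had a log2 difference of -0.19 (adjusted p = 0.00591 by edgeR) that turned to 0.14 after the correction (adjusted p = 0.00685 by edgeR), so no direction is given for it. Without si-Control replicate 1, si-*Fndc1* replicate 1 or si-*Fndc1* replicate 2, 4 genes of this list were called lower.

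Of 14 genes for TGF-β ligands, carriers, receptors and targets all were tested, 1 rose and 8 fell (7.14% and 57.1%, against 17.3% and 17.2% of all tested genes), with a median log2 fold change of -0.18. *Ltbp4*, a latent TGF-β binding protein, fell from 13.5 ± 0.557 to 9.19 ± 0.670 FPKM (mean ± SD of 5 libraries), a log2 difference of -0.55 with adjusted p = 4.2e-05 by edgeR. *Smad7*, an inhibitor that TGF-β signaling induces, fell from 4.86 ± 0.206 to 3.43 ± 0.201 FPKM (mean ± SD of 5 libraries), a log2 difference of -0.49 with adjusted p = 9.97e-05 by edgeR. *Tgfb2*, a ligand, had a log2 difference of 0.17 (adjusted p = 0.00845 by edgeR). After the correction 4 genes were called lower, *Ltbp4* (-0.22) and *Smad7* (-0.32) among them, and 2 higher, against 11.4% and 11.3% of all genes in that fit. The number called higher was also 2 without si-Control replicate 3, si-*Fndc1* replicate 3 or si-*Fndc1* replicate 5.

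Structural matrix genes, whose fall was part of the choice of the 9 genes, are given as a description. Of 28 genes 24 were tested, 19 were called lower and 1 higher, where 17.2% and 17.3% of all tested genes were. With GC content and length corrected for, 4 were called lower, all of them among the 19, and 3 higher, where 11.4% and 11.3% of all genes in that fit were. The median GC content of the 24 genes was 54.4%, against 50.5% for all tested genes with a known GC content. *Col1a1* had a log2 fold change of -0.78 and *Hspg2*, which encodes perlecan, one of -0.58, and after the correction these were -0.52 and -0.15. *Dcn*, which encodes the collagen-binding proteoglycan decorin, was the gene called higher, at 0.39 and at 0.23 after the correction.

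**Figure D5:**
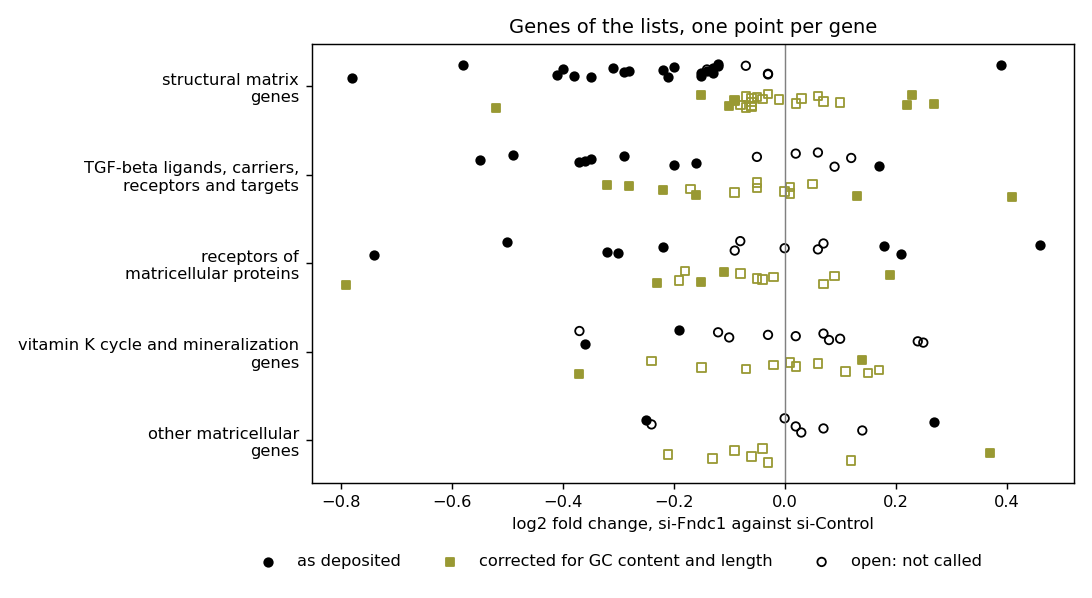
Log2 fold change of si-Fndc1 against si-Control (horizontal axis) for the tested genes of 5 lists that have a known GC content, one point per gene, from the deposited counts (black circles) and with GC content and length corrected for (squares), with filled symbols for genes called at an adjusted p-value under 0.05. The number of structural matrix genes called lower goes from 19 to 4.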

How the data were processed

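RNA-sequencing libraries of C2C12 cells, 5 si-Control and 5 si-*Fndc1*, were grouped and numbered by their labels, and 0 columns of values were left without a sample. The authors deposited read counts per gene without normalization and, beside each count, an FPKM value, listed as 0.0001 where no read was counted. The methods name TopHat, mm10 and htseq-count, the series description names STAR and mm9, and the submitters' processing notes name cutadapt 1.9, FastQC and GRCm39. How FPKM was computed and whether strand was used are not stated in the sources used here.

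The genes and lists were chosen with earlier results of these data known. The 13548 genes whose FPKM averaged 0.5 or more were tested on counts, with TMM factors and no replicate term, by the quasi-likelihood test of edgeR 4.0.16 in R 4.3.3, with Benjamini-Hochberg adjustment over all of them. Standard errors are the log2 fold change divided by the square root of F. DESeq2 1.42.0, which the paper names, and limma 3.58.1 on log2(FPKM + 1) and log2(FPKM + 0.1) were alternatives, as were other filters, DESeq2 size factors, a replicate block, each library left out, and an offset for GC content and length. That offset was fitted by Huber regression with splines of 5 degrees of freedom in each library, for the 11185 tested genes (82.6%) with a GC content from NCBIM37 transcripts. The edgeR step was tested on simulated data. The text names the 9 genes, *Fndc1*, up to 2 called genes per list and direction with the largest log2 fold change, and the 3 genes with profiles closest to *Mgp* and to *Spp1* (log2 CPM with 0.5 added). Other genes appear as cell type markers or genomic neighbours, the latter chosen after their values were seen. Counts summed to between 66771605 and 75995168 per si-Control library and between 56332844 and 72839369 per si-*Fndc1* library, and the spread between libraries, more than counting error, limits precision.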

Additional observations from a re-analysis of the deposited data

Results flagged for a closer look

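Of 60 groups of 5 FPKM values examined for a sample far from the others, 2 stood out, both for the receptor gene *Itgb1*, and chance alone gives about 1 in 20. The level in si-Control replicate 3 was 314.6 FPKM, the highest of its group, and that in si-*Fndc1* replicate 1 was 375.5 FPKM, likewise the highest of its group. None of the 9 matricellular genes stood out in this way in either group.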

How the results depend on the processing

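Over 19 alternatives *Mgp* ran from 0.60 to 0.81, *Spp1* from 0.32 to 0.69, *Sparc* from -0.17 to -0.11 and *Thbs1* from -0.23 to -0.18 on the log2 scale, and these 4 genes kept their calls in all of them. *Postn* lost its call only with the GC and length correction, with or without the replicate block, *Tnc* only with both together, and *Thbs3* with the correction or the block. *Thbs2*, not called in any, ran from -0.03 to 0.00 with single libraries left out, and its sign changed without si-*Fndc1* replicate 1 (0.00). *Fam20c* was 0.14 with the correction, with or without the block, the opposite direction.

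With the correction, other matricellular genes had 0 calls lower, receptors 1 higher, vitamin K and mineralization genes 1 higher and 1 lower, TGF-β genes 2 higher and 4 lower, and structural matrix genes 3 higher and 4 lower. With the correction and the replicate block, the 9 genes had 2 calls lower, other matricellular genes 0 lower, receptors 1 higher and 3 lower, vitamin K and mineralization genes 1 higher and 1 lower, TGF-β genes 3 lower, and structural matrix genes 3 higher and 3 lower. With no filter, other matricellular genes had 2 lower, vitamin K and mineralization genes 1 higher and structural matrix genes 2 higher. With a mean FPKM of at least 5, vitamin K and mineralization genes had 4 lower. The cause of these changes was not tested.

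With each library left out in turn, calls among the 9 genes stayed at 3 higher and 4 lower. Other matricellular genes ran from 0 to 1 higher, vitamin K and mineralization genes from 2 to 4 lower, and TGF-β genes from 1 to 2 higher.

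Libraries share replicate numbers across groups, but same-numbered libraries did not deviate together (correlations from -0.049 to 0.046), and only 1 of the 5 numbers matched best with itself. With the replicate number as a block, 1796 genes were called higher and 1776 lower, against 2338 and 2325, and 3 of the 9 genes were called higher and 3 lower. Depth limits only *Sparcl1*, with at most 56 counts per library.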
